A study of Mus musculus with 9 samples.

Results

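The heat shock proteins and DnaJ chaperones of the mouse heart were followed over 3 postnatal ages. The members are the genes measured by at least 1 probe set with a single platform symbol of the Dnaja, Dnajb, Dnajc, Hspa or Hspb families, or named Hspd1, Hspe1, Hsph1, Hsp90aa1, Hsp90ab1, Hsp90b1, Cryab, Bag3 or Hsf1, each read from the probe set with the highest mean. They came to 72 of the 19938 genes tested. Hsf1 and Hsp90ab1 had no probe set with a single symbol and are not analysed here. All 3 groups were hearts of C57BL/6 mice, labelled as cardiac muscle, at 24 hours, 7 days and 10 weeks of age, with 3 arrays per age and no treatment or genotype difference named in the labels. Total RNA was hybridised to Affymetrix Mouse Gene 1.0 ST arrays, and the values are log2 signals, so a difference of 1 is a 2-fold change. The labels do not tell whether each array stands for another animal, and the p-values therefore measure the spread between arrays, which may be technical.

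Chaperones keep proteins folded and escort those that cannot be saved to degradation. HSP70 proteins bind exposed stretches of a client in a cycle driven by ATP, J-proteins (the DnaJ family) bring clients and start ATP hydrolysis, and exchange factors such as the HSP110 and BAG proteins reset the cycle. Small heat shock proteins hold unfolding clients without ATP, HSP90 finishes the folding of kinases and receptors, and the mitochondrion and the endoplasmic reticulum have sets of their own. In striated muscle, BAG3 and HSPB8 hand damaged proteins of the contractile apparatus to autophagy, and mutations of BAG3 and CRYAB cause human heart and muscle disease.

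The cardiomyocyte list (10 genes such as Myh6 and Tnnt2) averaged 12.34 to 12.42 on every array, and the skeletal muscle list (10 genes) 4.67 to 4.86. The level cardiomyocyte mean covers changes in both directions. At 10 weeks against 24 hours, 3 of its 10 genes were higher and 4 lower, with differences of -0.57 to 0.29 (70.0% called, beside 40.1% of all genes). Several other marker lists moved with age or with single arrays, and their part in the results below was not tested. The brown fat list (6 of 7 genes measured) averaged 8.75 on 7-day replicate 2 and 8.01 on 7-day replicate 3, against 6.90 to 7.14 on the other arrays, and Ucp1, its defining gene, read 11.23 and 9.27 on those arrays. The dividing cell list (9 genes) averaged 4.48 to 4.97 at 10 weeks, against 7.85 to 8.31 at the younger ages. The fibroblast list (9 genes) averaged 8.72 to 8.97 at 10 weeks, against 9.60 to 10.55 at the younger ages. Its genes were split at 10 weeks against 24 hours, with 3 higher and 5 lower and differences of -2.52 to 1.07. The share called was 88.9%, beside 40.1% of all genes. Against 7 days, 0 of its genes were higher and 7 lower (77.8% called, beside 35.9% of all genes). The macrophage list (10 genes) averaged 7.60 to 7.74 at 10 weeks, against 6.20 to 6.81 at the younger ages. The erythroid list (3 of 7 genes measured) averaged 4.55 to 5.49 at 10 weeks, against 6.07 to 6.95 at the younger ages. The liver list (7 of 8 genes measured) averaged 5.06 on 7-day replicate 2, against 4.24 to 4.54 on the other arrays. The lung list (6 genes) averaged 4.90 on 7-day replicate 2 and 4.83 on 24-hour replicate 1, against 4.13 to 4.33 on the others. The white fat list (6 of 7 genes measured) averaged 7.20 on 7-day replicate 2 and 5.43 to 6.25 on the others. The atrial list (5 genes) averaged 6.58 to 8.20 at 10 weeks, against 9.48 to 10.56 at the younger ages. The Y-linked gene Eif2s3y read 2.87 to 3.30 on the 10-week arrays and 6.06 to 7.70 on the younger ones, while Xist read 8.26 to 9.56 on all 9, so the sex make-up of the RNA and the age of 10 weeks cannot be told apart in any 10-week result. In bulk tissue, fewer cells of a type and less RNA per cell cannot be told apart either.

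More members were higher than lower in the adult heart. Of the 72 members, 31 were higher at 10 weeks than at 24 hours, 11 were lower and 30 were not called, at an adjusted p under 0.05 in limma. Over all genes tested in that comparison, 19.5% were higher and 20.6% lower, 40.1% in all. Among these members, 7 were at least 2-fold higher and 0 at least 2-fold lower, against 3.0% and 3.39% of all genes. The members' median difference was 0.15, beside 0.04 over all genes.

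More members were called after the first week than within it, as were more of all genes, and the 2 intervals are of unequal length. The share of members called was 55.6% at 10 weeks against 7 days and 23.6% at 7 days against 24 hours. At 10 weeks against 7 days, 29 members were higher, 11 lower and 32 not called, beside 17.0% higher and 18.9% lower over all genes (35.9% in all). Of these, 5 were at least 2-fold higher and 0 at least 2-fold lower, against 2.07% and 2.98% of all genes. The members' median difference was 0.09, beside 0.04. At 7 days against 24 hours, 8 members were higher, 9 lower and 55 not called, beside 5.27% higher and 4.81% lower over all genes (10.1% in all). In that first-week comparison the median was 0.03 for the members and -0.00 for all genes, and 0 members reached 2-fold in either direction, against 0.426% of all genes higher and 0.201% lower by that much. The 10-week against 7-day and the 7-day against 24-hour comparisons share the 7-day arrays, and each pair of comparisons shares an age.

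The counts were also read among genes above the median signal of 5.57, where 60 members lie. Of these 60, 48.3% were higher at 10 weeks than at 24 hours and 18.3% lower, beside 25.5% and 35.5% of the 9969 genes above that signal. In the 10-week against 7-day comparison, 45.0% were higher and 16.7% lower, beside 22.8% and 32.9%. The other 12 members averaged 3.0 to 5.06 over the arrays, and 2 of the family's testis-enriched genes, Hspa1l and Dnajb3, are among them. The table carries no detection flags, so a difference that involves such a signal can be too small.

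The first-week counts depended on single arrays. The 8 higher members became 2, 3 and 3 without 24-hour replicate 1, 2 and 3, and 3, 4 and 1 without 7-day replicate 1, 2 and 3, and the 9 lower members became 5 without 24-hour replicate 2. Over all genes, the calls of that comparison also fell, from 2009 to between 1149 and 1549 without 1 of the 24-hour or 7-day arrays. Leaving out both 7-day replicates 2 and 3, which carry the fat markers, left 1 array at 7 days. Fewer members, and fewer of all genes, were then called in both comparisons with 7 days. The 11 lower members of the 10-week against 7-day comparison also became 7 without 7-day replicate 1, without 7-day replicate 2 or without 10-week replicate 1.

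**Figure D1:**
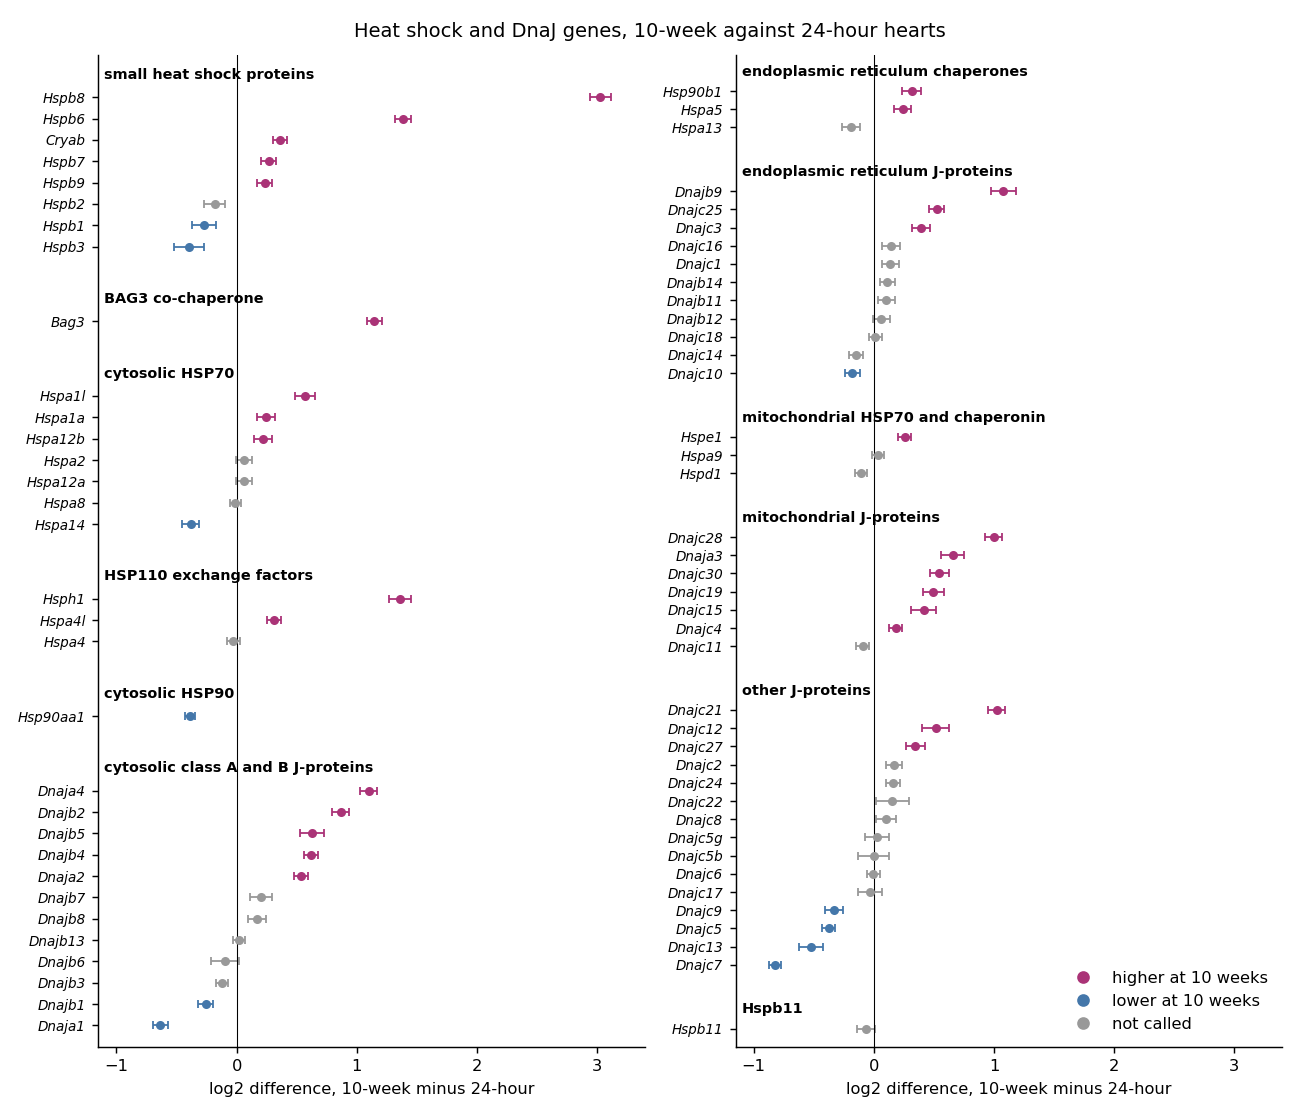
Log2 difference of each of the 72 members at 10 weeks minus 24 hours (horizontal axis), grouped by role, with bars for the standard error of the fit; colours mark members higher, lower or not called at an adjusted p under 0.05. Hspb8 lies farthest right at 3.03 and Dnajc7 farthest left at -0.82.

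The largest difference of any member, in each of the 3 comparisons, was that of the small heat shock protein gene Hspb8. Of the 8 small heat shock proteins, 5 were higher and 2 lower at 10 weeks against 24 hours (87.5% called, beside 40.1% of all genes). At 10 weeks against 7 days, 6 were higher and 0 lower (75.0% called, beside 35.9% of all genes). Hspb8, the partner of BAG3 in chaperone-assisted autophagy, read 7.70, 7.96 and 8.09 on the 24-hour arrays, 8.77, 8.76 and 8.85 on the 7-day arrays and 11.02, 10.90 and 10.91 on the 10-week arrays. No arrays of different ages overlapped, and every step was upward. It was 8.15-fold higher at 10 weeks than at 24 hours (log2 difference 3.03, SE 0.09, adjusted p = 5.43e-09 in limma). The step over the first week was 0.88 (adjusted p = 0.000208) and the step after it 2.15 (adjusted p = 6.89e-08).

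Hspb6, also called HSP20, binds contractile proteins and is a target of protein kinase A in cardiomyocytes. It read 10.75, 10.92 and 10.94 at 24 hours, 11.17, 11.19 and 11.29 at 7 days and 12.34, 12.14 and 12.29 at 10 weeks, again without overlap between ages. Its difference at 10 weeks against 24 hours was 1.38 (SE 0.07, adjusted p = 1.08e-07). The step after the first week was 1.04 (adjusted p = 1.21e-06). The first-week step of 0.35 was called (adjusted p = 0.0103) but not without 7-day replicate 3, where it was 0.31 (adjusted p = 0.0531).

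Cryab, the alpha-B-crystallin that protects desmin and titin, dipped before it rose. It read 10.91, 11.01 and 10.91 at 24 hours, 10.65, 10.76 and 10.76 at 7 days and 11.27, 11.23 and 11.40 at 10 weeks. All 10-week arrays lay above all younger ones, with differences of 0.58 against 7 days (adjusted p = 2.39e-05) and 0.36 against 24 hours (adjusted p = 0.000543). The first-week difference of -0.22 (adjusted p = 0.0415) lost its call when any 1 of 7 of the 9 arrays was left out.

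Hspb1, the HSP25 of the mouse, had its low point at 7 days. It read 9.21, 9.56 and 9.52 at 24 hours, 8.78, 8.77 and 8.83 at 7 days and 9.14, 9.32 and 9.03 at 10 weeks. The 7-day arrays lay below all others, with a fall of -0.64 against 24 hours (adjusted p = 0.00232), the largest first-week fall of any member, and without 7-day replicates 2 and 3 it was -0.65 (adjusted p = 0.0858). The difference at 10 weeks against 7 days was 0.37 (adjusted p = 0.013), and it was 0.29 without 10-week replicate 2 (adjusted p = 0.0514). At 10 weeks against 24 hours the ages overlapped, and the call at -0.27 (adjusted p = 0.048) was lost without any 1 of 7 arrays.

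Among the other small heat shock proteins, Hspb7, the cardiovascular family member, rose at 10 weeks by 0.37 against 7 days (adjusted p = 0.00056) and by 0.27 against 24 hours (adjusted p = 0.00432). Hspb7 signals were 12.33, 12.46 and 12.42 at 24 hours, 12.38, 12.25 and 12.25 at 7 days and 12.67, 12.58 and 12.76 at 10 weeks. Hspb3, a partner of Hspb2 in muscle, fell at 10 weeks against 24 hours by 0.39 on the log2 scale (adjusted p = 0.0264). Hspb3 read 6.80, 6.85 and 7.20 at 24 hours, 6.80, 6.60 and 6.88 at 7 days and 6.67, 6.63 and 6.37 at 10 weeks, with the adult arrays below the 24-hour ones. Its call was lost under quantile normalization, in a fit over every feature of the table, without 24-hour replicate 3 (-0.27, adjusted p = 0.099) or without 10-week replicate 3 (-0.30, adjusted p = 0.0924). Hspb2 itself read 8.34, 8.41 and 8.55 at 24 hours, 8.20, 8.13 and 8.42 at 7 days and 8.34, 8.23 and 8.18 at 10 weeks and was not called in any comparison.

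Bag3, the exchange factor that links HSP70 and the small heat shock proteins to autophagy, was level over the first week and rose after it. It read 8.36, 8.37 and 8.31 at 24 hours, 8.33, 8.32 and 8.32 at 7 days and 9.45, 9.40 and 9.62 at 10 weeks. The 2 younger ages overlapped, with a difference of -0.02 (adjusted p = 0.919), and the 10-week arrays lay more than 1 log2 unit above all of them. The rise was 1.17 against 7 days (SE 0.06, adjusted p = 2.49e-07) and 1.15 against 24 hours (adjusted p = 1.76e-07).

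**Figure D2:**
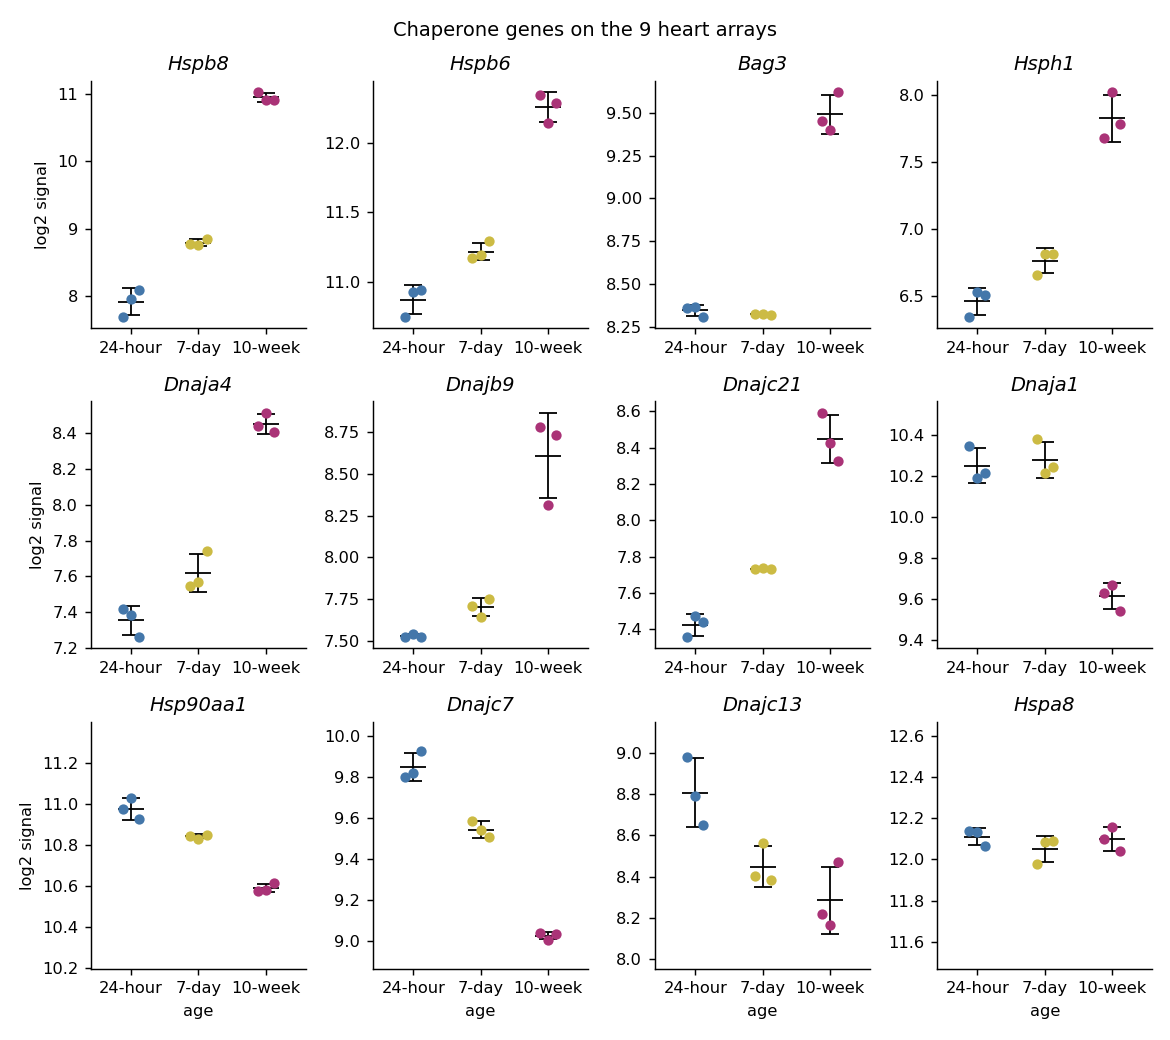
Log2 signal of 12 members on each of the 9 arrays (points) by age, with a long bar at the mean of 3 arrays and short bars at 1 SD to either side; each panel has its own vertical range. Hspb8, Hspb6, Bag3, Hsph1, Dnaja4, Dnajb9 and Dnajc21 are highest at 10 weeks, Dnaja1, Hsp90aa1, Dnajc7 and Dnajc13 are lowest there on average, and Hspa8 stays near 12.1.

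The promoters of these genes were read for the sites that heat shock factors and the endoplasmic reticulum stress factors bind. Windows of 300 bases, 250 before and 50 after a transcript start, came from RefSeq on build GRCm38.p6 and matched 58 of the 72 members by symbol. The heat shock element is a run of inverted GAA units, and its core was searched as GAANNTTC and as TTCNNGAA, each of which is its own reverse complement. Of the 58 members, 16 (27.6%) held at least 1 core, beside 17.0% of 27025 genes and 15.1% of 32851 promoters in the table. A run of at least 3 units, which overlaps the core, was found in Hspd1, Hspe1, Hsph1 and Dnajb6 (6.9% of the 58), beside 0.662% of genes and 0.603% of promoters. The windows of Hspd1 and Hspe1 overlap and hold the same stretch on opposite strands. Both member shares, 27.6% and 6.9%, count that stretch for each gene. Of the 7 members at least 2-fold higher at 10 weeks than at 24 hours, 5 held a core (Hspb8, Hspb6, Bag3, Hsph1 and Dnaja4) and 2 did not (Dnajb9 and Dnajc21). Among members with a window, a core was present in 9 of 28 that were higher in that comparison, 4 of 9 that were lower and 3 of 21 that were not called. These matches describe letters in a window, not bound sites.

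These windows are printed for those 5 members, then for Dnaja1 and Hspe1. Dnaja1 has a core and was lower at 10 weeks, on the brighter of its 2 single-symbol probe sets only. The window of Hspe1 overlaps that of Hspd1 by 285 bases, the 2 genes lying head to head. Capitals mark the heat shock element cores, all in the direction of transcription. That of Hspb8 lies 3 to 10 bases downstream of its start and that of Bag3 43 to 50 bases downstream, so both fall inside the first transcribed bases. The core of Hspb6 begins 120 bases upstream, those of Dnaja4 90 and 52 bases upstream and that of Dnaja1 124 bases upstream. Hspb6 and Dnaja4 have 2 windows each and Dnaja1 has 3, for different transcript starts, and only the window printed held a core. Hsph1 has a core 33 bases upstream and an overlapping pair that begins 37 bases downstream. From the start of its other window, the same cores lie 54 bases upstream and 16 bases downstream. Hspe1 has 3 overlapping cores, of which the farthest begins 89 bases upstream.
Hspb8, chr5:116422815-116423114, minus strand: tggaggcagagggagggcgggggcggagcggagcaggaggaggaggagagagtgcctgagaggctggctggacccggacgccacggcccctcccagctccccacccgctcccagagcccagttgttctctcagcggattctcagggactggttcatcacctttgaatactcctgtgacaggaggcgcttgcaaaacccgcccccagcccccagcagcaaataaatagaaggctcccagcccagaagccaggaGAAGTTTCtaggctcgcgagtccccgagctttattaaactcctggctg
Hspb6, chr7:30553051-30553350, plus strand: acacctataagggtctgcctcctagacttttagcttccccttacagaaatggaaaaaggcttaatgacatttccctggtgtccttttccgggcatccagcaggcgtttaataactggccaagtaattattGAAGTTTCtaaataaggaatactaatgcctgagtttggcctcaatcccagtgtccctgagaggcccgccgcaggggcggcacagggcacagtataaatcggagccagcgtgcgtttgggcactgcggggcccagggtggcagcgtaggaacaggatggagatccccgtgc
Bag3, chr7:128523333-128523632, plus strand: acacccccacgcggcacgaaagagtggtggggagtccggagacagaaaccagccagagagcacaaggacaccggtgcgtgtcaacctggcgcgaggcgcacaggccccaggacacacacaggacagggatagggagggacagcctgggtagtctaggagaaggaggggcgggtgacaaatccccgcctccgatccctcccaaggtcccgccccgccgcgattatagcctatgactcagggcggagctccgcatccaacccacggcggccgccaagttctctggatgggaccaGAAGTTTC
Hsph1, chr5:149636287-149636586, minus strand: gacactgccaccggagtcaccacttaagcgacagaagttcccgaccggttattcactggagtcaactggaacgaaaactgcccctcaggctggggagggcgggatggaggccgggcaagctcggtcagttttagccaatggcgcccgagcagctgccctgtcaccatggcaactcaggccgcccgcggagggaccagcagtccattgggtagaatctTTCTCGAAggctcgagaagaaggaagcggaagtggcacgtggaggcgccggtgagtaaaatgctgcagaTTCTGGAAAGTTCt
Dnaja4, chr9:54699309-54699608, plus strand: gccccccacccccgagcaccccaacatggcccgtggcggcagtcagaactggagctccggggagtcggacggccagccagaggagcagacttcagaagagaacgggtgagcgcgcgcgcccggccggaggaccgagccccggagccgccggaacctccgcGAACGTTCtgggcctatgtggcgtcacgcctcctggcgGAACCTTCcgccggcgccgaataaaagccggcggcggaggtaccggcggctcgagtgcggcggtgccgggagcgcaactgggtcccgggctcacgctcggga
Dnaja1, chr4:40722218-40722517, plus strand: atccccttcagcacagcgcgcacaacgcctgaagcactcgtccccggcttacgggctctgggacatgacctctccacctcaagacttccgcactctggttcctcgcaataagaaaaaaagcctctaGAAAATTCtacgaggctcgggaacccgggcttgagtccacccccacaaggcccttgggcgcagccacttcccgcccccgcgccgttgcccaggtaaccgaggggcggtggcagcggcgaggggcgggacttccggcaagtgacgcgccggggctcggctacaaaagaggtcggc
Hspe1, chr1:55087898-55088197, plus strand: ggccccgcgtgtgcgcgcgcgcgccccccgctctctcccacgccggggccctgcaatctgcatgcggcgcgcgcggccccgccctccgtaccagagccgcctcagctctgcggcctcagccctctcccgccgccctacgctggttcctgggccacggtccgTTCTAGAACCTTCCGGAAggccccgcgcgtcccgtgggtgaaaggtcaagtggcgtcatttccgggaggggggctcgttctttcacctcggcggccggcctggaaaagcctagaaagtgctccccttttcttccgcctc
The cores of Hspb8, Hspb6 and Bag3 have the same 8 letters, GAAGTTTC, which also occur in the window of Hspb1.

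The HSP110 exchange factors, which reset HSP70, moved unequally. Hsph1, whose protein is HSP105, read 6.35, 6.54 and 6.51 at 24 hours, 6.66, 6.82 and 6.82 at 7 days and 7.68, 8.02 and 7.78 at 10 weeks. No ages overlapped, and the 10-week arrays stood well above both others. Hsph1 was 1.36 higher at 10 weeks than at 24 hours (SE 0.09, adjusted p = 1.12e-06) and 1.06 higher than at 7 days (adjusted p = 9.55e-06). The first-week difference of 0.30 was not called (adjusted p = 0.0752).

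Hspa4l, a second HSP110 gene, read 7.89, 7.93 and 7.94 at 24 hours, 7.61, 7.65 and 7.67 at 7 days and 8.13, 8.26 and 8.31 at 10 weeks. It was lowest at 7 days on every array and highest at 10 weeks, with 0.59 at 10 weeks against 7 days (adjusted p = 1.89e-05) and 0.31 against 24 hours (adjusted p = 0.00132). The first-week fall of -0.28 (adjusted p = 0.0126) lost its call without 24-hour replicate 2, at -0.27 (adjusted p = 0.0545). Hspa4, the widely expressed HSP110 gene, was not called in any comparison, with 9.33, 9.37 and 9.29 at 24 hours, 9.21, 9.18 and 9.30 at 7 days and 9.24, 9.27 and 9.39 at 10 weeks.

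Of the 7 cytosolic HSP70 genes, 3 were higher and 1 lower at 10 weeks against 24 hours (57.1% called, beside 40.1% of all genes). Against 7 days, 2 were higher and 1 lower (42.9% called, near the 35.9% of all genes). Hspa8, the constitutive HSC70 that BAG3 and the J-proteins serve, read 12.14, 12.13 and 12.06 at 24 hours, 11.98, 12.09 and 12.09 at 7 days and 12.10, 12.16 and 12.04 at 10 weeks. The ages overlapped, and the difference at 10 weeks against 24 hours was -0.01 (SE 0.05, adjusted p = 0.874). Hspa2, best known from the testis, read 5.73, 5.73 and 5.54 at 24 hours, 5.73, 5.73 and 5.84 at 7 days and 5.73, 5.73 and 5.73 at 10 weeks, and was not called.

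Hspa1a, the stress-inducible HSP70, read 5.71, 5.64 and 5.53 at 24 hours, 5.66, 5.74 and 5.54 at 7 days and 5.83, 5.88 and 5.90 at 10 weeks. The 10-week arrays lay just above the others, by 0.24 against 24 hours (adjusted p = 0.0225) and by 0.22 against 7 days (adjusted p = 0.0364). These calls were lost without any 1 of 4 arrays and any 1 of 5 arrays, with differences over the 9 left-out arrays of 0.20 to 0.29 and 0.17 to 0.27. Signals of Hspa1a and its near-identical neighbour Hspa1b cannot be separated by every probe, and Hspa1b has no probe set of its own among the members.

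Hspa1l, the testis-enriched neighbour of Hspa1a, rose at a dim signal. It read 4.76, 4.98 and 4.80 at 24 hours, 4.86, 4.93 and 4.99 at 7 days and 5.45, 5.51 and 5.29 at 10 weeks, with all adult arrays on top and 0.57 against 24 hours (adjusted p = 0.000278). Hspa14, an HSP70 of the ribosome-associated complex, fell. It read 7.09, 7.07 and 7.16 at 24 hours, 7.12, 7.12 and 7.17 at 7 days and 6.78, 6.57 and 6.82 at 10 weeks, with all adult arrays lowest and -0.38 against 24 hours (adjusted p = 0.00146).

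Hsp90aa1, the inducible cytosolic HSP90, declined. Its signals were 10.97, 11.03 and 10.92 at 24 hours, 10.85, 10.83 and 10.85 at 7 days and 10.57, 10.58 and 10.61 at 10 weeks. The ages did not overlap. The difference at 10 weeks was -0.38 against 24 hours (SE 0.04, adjusted p = 3.34e-05) and -0.25 against 7 days (adjusted p = 0.000825), while that of the first week, -0.13, was not called (adjusted p = 0.0821). All 3 of its single-symbol probe sets were lower at 10 weeks against 24 hours, by -0.36 to -0.40.

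The cytosolic class A and B J-proteins, the main partners of cytosolic HSP70, went both ways. Of the 12, 5 were higher and 2 lower at 10 weeks against 24 hours (58.3% called, beside 40.1% of all genes). Against 7 days, 5 were higher and 3 lower (66.7% called, beside 35.9% of all genes). Dnaja4 read 7.42, 7.39 and 7.26 at 24 hours, 7.55, 7.57 and 7.74 at 7 days and 8.44, 8.51 and 8.40 at 10 weeks. It rose without overlap between ages, by 1.10 at 10 weeks against 24 hours (SE 0.07, adjusted p = 6.29e-07) and by 0.83 against 7 days (adjusted p = 6.29e-06). Its first-week call (0.27, adjusted p = 0.0383) was lost without any 1 of 7 arrays.

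Dnaja1, a farnesylated partner of HSC70 in protein import and folding, moved the other way. It read 10.35, 10.19 and 10.22 at 24 hours, 10.38, 10.22 and 10.24 at 7 days and 9.63, 9.67 and 9.55 at 10 weeks. The 2 younger ages overlapped, and the 10-week arrays lay apart below them, by -0.63 against 24 hours (SE 0.06, adjusted p = 1.64e-05) and by -0.66 against 7 days (adjusted p = 1.59e-05). A second, dimmer single-symbol probe set of Dnaja1, between 6.27 and 6.83, did not show this (-0.01, adjusted p = 0.967 in a fit over every feature). A probe set shared with Mir207 differed by 0.05 at 10 weeks against 24 hours. The gene-level fall of Dnaja1 therefore rests on 1 of its 2 single-symbol probe sets.

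Dnaja2, which feeds clients to HSC70, rose at 10 weeks. It read 9.35, 9.40 and 9.47 at 24 hours, 9.40, 9.27 and 9.42 at 7 days and 9.94, 9.89 and 9.98 at 10 weeks, and was 0.53 higher at 10 weeks than at 24 hours (adjusted p = 2.82e-05). Dnajb2, a J-protein with ubiquitin-binding motifs that sends clients to the proteasome, read 5.48, 5.66 and 5.67 at 24 hours, 5.77, 5.62 and 5.68 at 7 days and 6.43, 6.49 and 6.49 at 10 weeks. For both genes the adult arrays stood clear of the younger ones, and Dnajb2 was 0.87 higher than at 24 hours (adjusted p = 3.88e-06).

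Dnajb4 and Dnajb5 are relatives of Dnajb1, the heat-inducible HSP40. Dnajb4 rose at each age, with 8.69, 8.70 and 8.76 at 24 hours, 8.93, 8.86 and 8.99 at 7 days and 9.33, 9.27 and 9.40 at 10 weeks, and was 0.62 higher at 10 weeks than at 24 hours (adjusted p = 7.9e-06). Its first-week call (0.22, adjusted p = 0.035) was lost without any 1 of 6 arrays. Dnajb5 read 6.64, 6.82 and 6.66 at 24 hours, 6.94, 6.90 and 7.20 at 7 days and 7.32, 7.47 and 7.20 at 10 weeks. The 7-day and 10-week arrays of Dnajb5 overlapped at 7.20, and it was 0.63 higher at 10 weeks than at 24 hours (adjusted p = 0.000438).

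Dnajb1 itself read 7.18, 7.13 and 7.29 at 24 hours, 7.20, 7.18 and 7.13 at 7 days and 6.87, 7.00 and 6.96 at 10 weeks. All adult arrays lay below the younger ones, by -0.26 against 24 hours (adjusted p = 0.00766) and by -0.22 against 7 days (adjusted p = 0.0173). The later step of Dnajb1 lost its call without 7-day replicate 1, 7-day replicate 2 or 10-week replicate 1 (adjusted p of at most 0.0585), without both 7-day replicates 2 and 3 (adjusted p = 0.115), with median centring (-0.17, adjusted p = 0.0604) and with quantile normalization (-0.14, adjusted p = 0.117).

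In the endoplasmic reticulum, 2 of 3 chaperones and 3 of 11 J-proteins were higher at 10 weeks against 24 hours, and 0 and 1 were lower. The shares called were 66.7% and 36.4%, beside 40.1% of all genes, so that of the J-proteins lay below the share of all genes. Dnajb9, the J-protein ERdj4, keeps the stress sensor IRE1 off and helps degrade misfolded proteins. It read 7.53, 7.54 and 7.53 at 24 hours, 7.71, 7.65 and 7.75 at 7 days and 8.78, 8.32 and 8.73 at 10 weeks. No ages overlapped, and 10-week replicate 2 was the lowest of its age. The rise at 10 weeks was 1.08 against 24 hours (SE 0.11, adjusted p = 1.43e-05) and 0.91 against 7 days (adjusted p = 6.61e-05).

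Hspa5, the lumenal HSP70 known as BiP, read 10.83, 10.93 and 10.78 at 24 hours, 11.00, 11.00 and 11.09 at 7 days and 11.04, 10.98 and 11.23 at 10 weeks. The 7-day and 10-week arrays overlapped above the 24-hour ones, and only the 10-week against 24-hour difference, 0.24, was called (adjusted p = 0.0184). That call was lost without 24-hour replicate 1 (0.23, adjusted p = 0.0569) or 24-hour replicate 3 (0.20, adjusted p = 0.0743). Hsp90b1, the lumenal HSP90 known as GRP94, had a like course, with 10.83, 10.82 and 10.65 at 24 hours, 10.96, 10.98 and 10.99 at 7 days, 11.08, 10.92 and 11.24 at 10 weeks and a difference of 0.31 at 10 weeks against 24 hours (adjusted p = 0.00821).

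Dnajc3, a lumenal J-protein that limits the stress kinase PERK, reached its adult level within the first week. It read 8.06, 8.09 and 8.02 at 24 hours, 8.23, 8.48 and 8.49 at 7 days and 8.39, 8.44 and 8.52 at 10 weeks. It was 0.39 higher at 10 weeks than at 24 hours (adjusted p = 0.00149). The first-week rise of 0.34 (adjusted p = 0.0159) was lost without any 1 of 5 arrays and came to 0.17 without 7-day replicates 2 and 3 (adjusted p = 0.387).

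The endoplasmic reticulum stress element was searched on both strands as CCAAT, any 9 bases and CCACG. It was present in the windows of 3 of the 58 members (5.17%), Hspa5, Hsp90b1 and Dnajc3. Over the whole set of windows it was present in 0.137% of genes and 0.119% of promoters, and the contrast was not tested. The window of Hspa5 is shown, with the element in capitals, because these same 3 members were higher at 10 weeks than at 24 hours and none was called at 10 weeks against 7 days. The element begins 65 bases upstream of the start.
Hspa5, chr2:34771840-34772139, plus strand: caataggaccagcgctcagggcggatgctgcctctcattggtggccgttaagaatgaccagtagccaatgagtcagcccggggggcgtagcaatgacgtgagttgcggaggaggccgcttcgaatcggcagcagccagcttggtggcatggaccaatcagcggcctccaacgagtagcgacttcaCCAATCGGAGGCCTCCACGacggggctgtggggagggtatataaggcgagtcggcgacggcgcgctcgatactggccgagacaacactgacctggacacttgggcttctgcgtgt
Hsp90b1 has 1 element on each strand, and the window of Dnajb9 has none.

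Hspa13, a microsomal HSP70 without the client-binding domain, fell between 7 days and 10 weeks by 0.40 on the log2 scale (adjusted p = 0.00149). It read 7.78, 7.75 and 7.66 at 24 hours, 7.95, 7.91 and 7.97 at 7 days and 7.37, 7.60 and 7.64 at 10 weeks, so the adult arrays lay below all others. Dnajc10, the disulfide reductase ERdj5, read 8.50, 8.54 and 8.47 at 24 hours, 8.58, 8.63 and 8.57 at 7 days and 8.28, 8.24 and 8.45 at 10 weeks. The adult arrays of Dnajc10 lay below all others, with a fall of 0.27 against 7 days (adjusted p = 0.00547). Its fall of 0.18 against 24 hours (adjusted p = 0.0387) was lost without any 1 of 7 arrays. Dnajc25, the third J-protein of this compartment that was higher at 10 weeks against 24 hours, differed by 0.52 (adjusted p = 6.44e-05). Dnajc16 read 7.06, 7.05 and 7.16 at 24 hours, 6.77, 6.97 and 6.94 at 7 days and 7.16, 7.32 and 7.21 at 10 weeks. Dnajc16 was 0.34 higher at 10 weeks than at 7 days (adjusted p = 0.00366), a call kept under every alternative.

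In mitochondria, the HSP70 and the HSP60 of the matrix were lower at 7 days than at 24 hours. Hspa9, the HSP70 (mortalin) that pulls proteins through the inner membrane, read 11.03, 11.00 and 11.07 at 24 hours, 10.65, 10.77 and 10.80 at 7 days and 11.04, 11.09 and 11.08 at 10 weeks. The 7-day arrays lay below all others, and the 24-hour and 10-week arrays overlapped. The differences were -0.30 at 7 days against 24 hours (SE 0.05, adjusted p = 0.00396), 0.34 at 10 weeks against 7 days (adjusted p = 0.00036) and 0.04 at 10 weeks against 24 hours (adjusted p = 0.585). Without 7-day replicates 2 and 3, the first-week fall of Hspa9 was -0.39 (adjusted p = 0.0216).

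Hspd1 and Hspe1 encode the HSP60 barrel and its HSP10 lid. Hspd1 read 10.49, 10.50 and 10.56 at 24 hours, 10.22, 10.28 and 10.30 at 7 days and 10.39, 10.34 and 10.50 at 10 weeks. Its fall over the first week was -0.25 (adjusted p = 0.0127; without 24-hour replicate 3, -0.23 and adjusted p = 0.0549), and neither 10-week difference was called. A second, dimmer single-symbol probe set of Hspd1 differed by -0.31 over the first week. That probe set differed by 0.36 at 10 weeks against 7 days and by 0.05 against 24 hours. Hspe1 read 10.08, 10.10 and 10.10 at 24 hours, 9.95, 9.93 and 9.94 at 7 days and 10.29, 10.29 and 10.46 at 10 weeks.

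For both genes the 7-day arrays were the lowest, but the test called different steps on the probe sets used. The later rise of Hspd1 depended on the probe set, with 0.145 on the one used and 0.36 on the other. The first-week difference of Hspe1, -0.15, was not called (adjusted p = 0.118), and its rises of 0.41 against 7 days (adjusted p = 0.000151) and 0.26 against 24 hours (adjusted p = 0.00279) were. Whether the 2 genes, whose starts face each other, differ in their steps was not tested.

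Of the 7 J-proteins of mitochondria, 6 were higher and 0 lower at 10 weeks against 24 hours (85.7% called, beside 40.1% of all genes). Against 7 days, 3 were higher and 0 lower (42.9% called, near the 35.9% of all genes). The seventh, Dnajc11, had a difference of -0.09 at 10 weeks against 24 hours (adjusted p = 0.219). Dnajc28, a poorly characterised member, showed the widest swing, with 7.41, 7.37 and 7.34 at 24 hours, 7.10, 6.89 and 6.83 at 7 days and 8.30, 8.40 and 8.41 at 10 weeks. The ages did not overlap. It fell by 0.43 on the log2 scale over the first week (adjusted p = 0.00481; without 7-day replicates 2 and 3, -0.27 and adjusted p = 0.159) and stood 1.43 higher at 10 weeks than at 7 days (SE 0.07, adjusted p = 2.46e-07) and 1.00 higher than at 24 hours (adjusted p = 1.99e-06).

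Dnaja3, the HSPA9 partner whose loss from the mouse heart causes dilated cardiomyopathy, read 8.17, 8.12 and 8.30 at 24 hours, 8.06, 8.27 and 8.27 at 7 days and 8.86, 9.03 and 8.68 at 10 weeks. The adult arrays lay above the overlapping younger ones, by 0.66 against 24 hours (adjusted p = 0.000263). Dnajc30, which serves respiratory complex I, was higher by 0.54 in the same comparison (adjusted p = 0.000275).

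Dnajc19 and Dnajc15 are J-proteins of the inner membrane import motor, and loss of human DNAJC19 causes a dilated cardiomyopathy with ataxia. Most of the difference of both lay in the first week. Dnajc19 read 6.39, 6.51 and 6.46 at 24 hours, 6.95, 6.81 and 6.80 at 7 days and 7.10, 7.01 and 6.75 at 10 weeks, with 0.50 at 10 weeks against 24 hours (adjusted p = 0.00127). Its first-week difference was 0.40 (adjusted p = 0.0208), lost without any 1 of 5 arrays. Dnajc15 read 8.82, 8.81 and 9.10 at 24 hours, 9.37, 9.25 and 9.28 at 7 days and 9.44, 9.43 and 9.10 at 10 weeks. Dnajc15 was 0.41 higher at 10 weeks than at 24 hours (adjusted p = 0.00885), with ages that overlapped at 9.10, and its first-week call (0.39, adjusted p = 0.041) was lost without any 1 of 6 arrays.

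**Figure D3:**
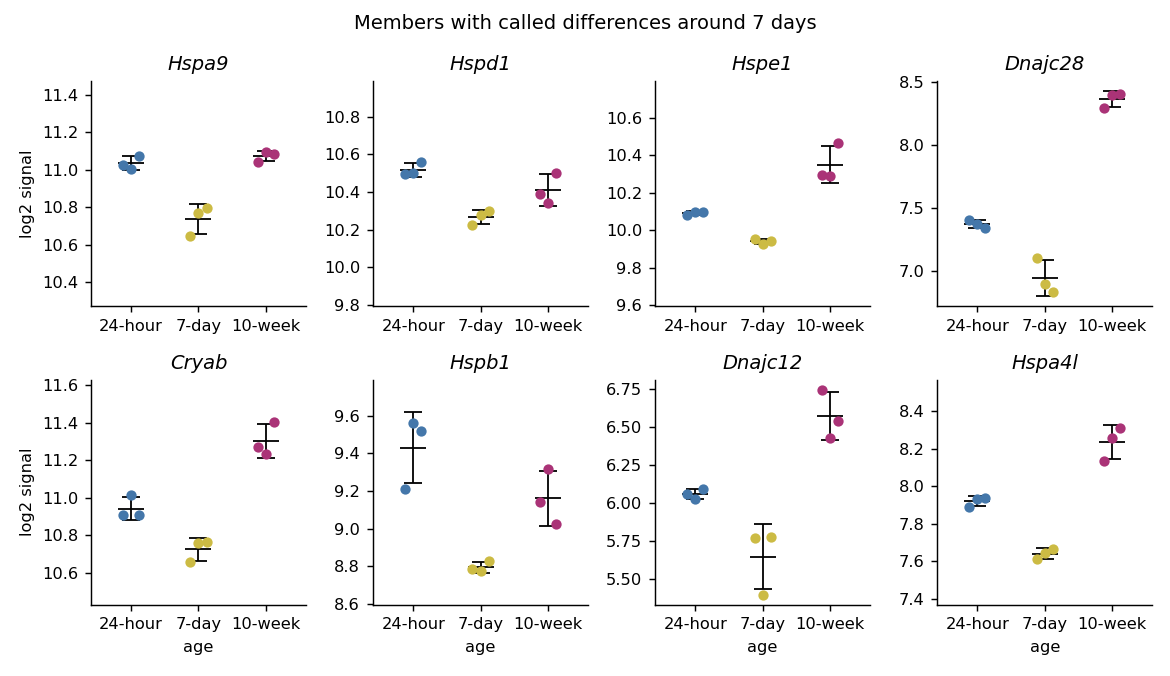
Log2 signal of 8 members on each of the 9 arrays (points) by age, with a long bar at the mean of 3 arrays and short bars at 1 SD to either side; each panel has its own vertical range. The 7-day arrays are the lowest in all 8 panels; the first-week difference of Hspe1 was not called.

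Among the other J-proteins, of which 3 of 15 were higher and 4 lower at 10 weeks against 24 hours (46.7% called, beside 40.1% of all genes), Dnajc7 declined at both steps. Dnajc7, which passes clients between HSP70 and HSP90, read 9.80, 9.82 and 9.93 at 24 hours, 9.58, 9.54 and 9.51 at 7 days and 9.04, 9.01 and 9.04 at 10 weeks. It fell without overlap at both steps, by 0.30 (adjusted p = 0.00379) and 0.52 (adjusted p = 1.95e-05) on the log2 scale, and by 0.82 overall (SE 0.05, adjusted p = 5.05e-07). Without 7-day replicates 2 and 3 the first-week fall was -0.26 (adjusted p = 0.136). Dnajc5, the cysteine string protein of secretory vesicles, read 8.55, 8.52 and 8.6 at 24 hours, 8.32, 8.36 and 8.36 at 7 days and 8.13, 8.14 and 8.27 at 10 weeks. The ages of Dnajc5 did not overlap. The 10-week against 24-hour difference of Dnajc5 was -0.38 (adjusted p = 0.000305), and its calls at the single steps (-0.21 and -0.16) were lost without any 1 of 6 and any 1 of 8 arrays.

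Dnajc13, the endosomal protein RME-8, is covered by 15 single-symbol probe sets. The one with the highest mean read 8.98, 8.79 and 8.65 at 24 hours, 8.40, 8.56 and 8.38 at 7 days and 8.22, 8.17 and 8.47 at 10 weeks, with -0.52 at 10 weeks against 24 hours (adjusted p = 0.00184). In a fit over every feature, 13 of the 15 were called lower in that comparison and all 15 had a negative difference, of -0.38 to -0.74. Dnajc9, which delivers histones H3 and H4 in dividing cells, read 7.19, 7.17 and 7.32 at 24 hours, 7.38, 7.35 and 7.25 at 7 days and 6.99, 6.75 and 6.94 at 10 weeks. All adult arrays of Dnajc9 lay below the younger ones, and it fell by 0.33 against 24 hours (adjusted p = 0.00558) and by 0.43 against 7 days (adjusted p = 0.00124). The dividing cell markers fell on the same 10-week arrays, and their part in the fall of Dnajc9 was not tested.

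Dnajc21, a factor of ribosome maturation, rose through both steps. It read 7.36, 7.48 and 7.44 at 24 hours, 7.73, 7.74 and 7.73 at 7 days and 8.59, 8.42 and 8.33 at 10 weeks. The ages did not overlap, and it was 1.02 higher at 10 weeks than at 24 hours (SE 0.07, adjusted p = 1.08e-06) and 0.71 higher than at 7 days (adjusted p = 2e-05). The first-week call (0.31, adjusted p = 0.0198) was lost without any 1 of 5 arrays.

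Dnajc12, a co-chaperone of the aromatic amino acid hydroxylases, read 6.06, 6.03 and 6.09 at 24 hours, 5.77, 5.40 and 5.78 at 7 days and 6.75, 6.43 and 6.54 at 10 weeks. It was lowest at 7 days and highest at 10 weeks, with 0.93 at 10 weeks against 7 days (SE 0.11, adjusted p = 8.22e-05) and 0.51 against 24 hours (adjusted p = 0.0036). Its first-week call (-0.41, adjusted p = 0.0422) was lost without any 1 of 7 arrays. Dnajc27, a Rab-like protein with a J-domain, was higher by 0.44 at 10 weeks against 7 days (adjusted p = 0.00111).

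Of the remaining members, Hspb9, a testis-enriched small heat shock protein at a dim signal, was 0.23 higher at 10 weeks than at 24 hours (adjusted p = 0.0109), a call kept under every alternative that measured it. Small calls at 10 weeks against 7 days, Dnajb12 (0.25), Dnajc2 (0.23), Dnajb5 (0.32) and Hspb9 (0.20) among the higher and Dnajb3 (-0.15) and Dnajc14 (-0.17) among the lower, were lost when single arrays were left out, with an adjusted p of at most 0.133. Dnajb12 was not called without 7-day replicate 3 (0.23, adjusted p = 0.056), and Hspb9 without that array (adjusted p = 0.0819) or 10-week replicate 3 (adjusted p = 0.0579). At 10 weeks against 24 hours the calls of Hspa12b (0.22) and Dnajc4 (0.18) were also lost without single arrays, with an adjusted p of at most 0.146. Leaving out any 1 array kept 35 of the 42 calls of the 10-week against 24-hour comparison, 30 of 40 of the 10-week against 7-day comparison and 5 of 17 of the 7-day against 24-hour comparison. The 5 were Hspb8, Hspb1, Hspa9, Dnajc7 and Dnajc28.

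Chaperone partners outside the family were counted at 10 weeks against 7 days, where 35.9% of all genes were called. The lists came from general knowledge but were chosen with earlier results of these data known. Their counts describe the lists and are no independent test. Of 12 genes of chaperone-assisted autophagy and ubiquitin ligases, 7 were higher and 1 lower (66.7% called), with a median difference of 0.34. Trim54, the sarcomeric ligase MuRF3, was higher by 2.74 (adjusted p = 8.49e-08) and Fbxo32, the muscle ligase atrogin-1, by 1.41 (adjusted p = 3.92e-08). Synpo2, which ties BAG3 to the autophagosome machinery, was higher by 1.06 (adjusted p = 2.37e-05), while Trim55, or MuRF2, fell by 1.16 on the log2 scale (adjusted p = 1.65e-07). Sqstm1, the autophagy receptor p62, was named after its value was seen and was higher by 0.87 (adjusted p = 1e-06).

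Of 11 mitochondrial proteases and stress factors, 8 were higher and 0 lower (72.7% called), with a median of 0.49. Oma1, a stress-activated protease of the inner membrane, was higher by 0.96 (adjusted p = 8.62e-06), and Lonp1, the matrix protease, by 0.73 (adjusted p = 3.52e-05). Atf5, a transcription factor of the mitochondrial stress response, rose by 0.61 (adjusted p = 2.21e-05). Of 14 subunits of the CCT chaperonin and prefoldin, which fold actin and tubulin, 1 was higher and 6 lower, with a median of -0.09. Cct3 fell by 0.49 and Cct6a by 0.49 on the log2 scale (adjusted p = 7.33e-05 and 5.04e-05), and at 10 weeks against 24 hours 3 of the 14 were higher and 9 lower (85.7% called, beside 40.1% of all genes).

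Of 23 genes of endoplasmic reticulum folding and the unfolded protein response, 6 were higher and 10 lower (69.6% called), with a median of -0.15. The same list had 9 higher and 7 lower at 10 weeks against 24 hours, with a median of 0.10, and 7 higher and 1 lower at 7 days against 24 hours. Serpinh1, the collagen chaperone HSP47, fell by 1.23 on the log2 scale (adjusted p = 3.39e-07) and Pdia4, a disulfide isomerase, by 0.78 (adjusted p = 0.000149), on the arrays where the fibroblast list was also low, and the part of fibroblasts was not tested. Herpud1, which serves the degradation of misfolded proteins, was higher by 0.88 (adjusted p = 5.36e-06). Of 17 HSP90 co-chaperones, 4 were higher and 1 lower, and the 29.4% called lay below the share of all genes. Fkbp4, an immunophilin of steroid receptor complexes, differed by 0.58 (adjusted p = 0.000163).

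Of the 11 BAG proteins and nucleotide exchange factors other than Bag3, 3 were higher and 0 lower, and the 27.3% called also lay below the share of all genes. Bag1 differed by 0.56 (adjusted p = 0.000717). Without 7-day replicates 2 and 3, a fit with 1 array at 7 days, fewer genes of this list and of the co-chaperones were higher. Fewer of all genes were higher in that fit as well. Of 6 other heat shock factors and regulators, 2 were higher and 1 lower. Hsf2, a heat shock factor active in development, was lower by 1.01 at 10 weeks than at 24 hours on the log2 scale, after -0.50 (adjusted p = 0.000587) and -0.50 (adjusted p = 8.02e-05) at the 2 steps. Of 18 immediate early genes, which respond to handling of tissue, 2 were higher and 3 lower (27.8% called, also below the share of all genes). In that list, 7 were higher and 0 lower at 10 weeks against 24 hours (38.9% called, beside 40.1% of all genes), with a median of 0.22. At 7 days against 24 hours, 6 were higher and 0 lower (33.3% called, beside 10.1% of all genes). Without 7-day replicates 2 and 3, the list's calls in both comparisons with 7 days were lost, and fewer of all genes were called. The part of the immediate early genes' change in the members' results was not tested.

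**Figure D4:**
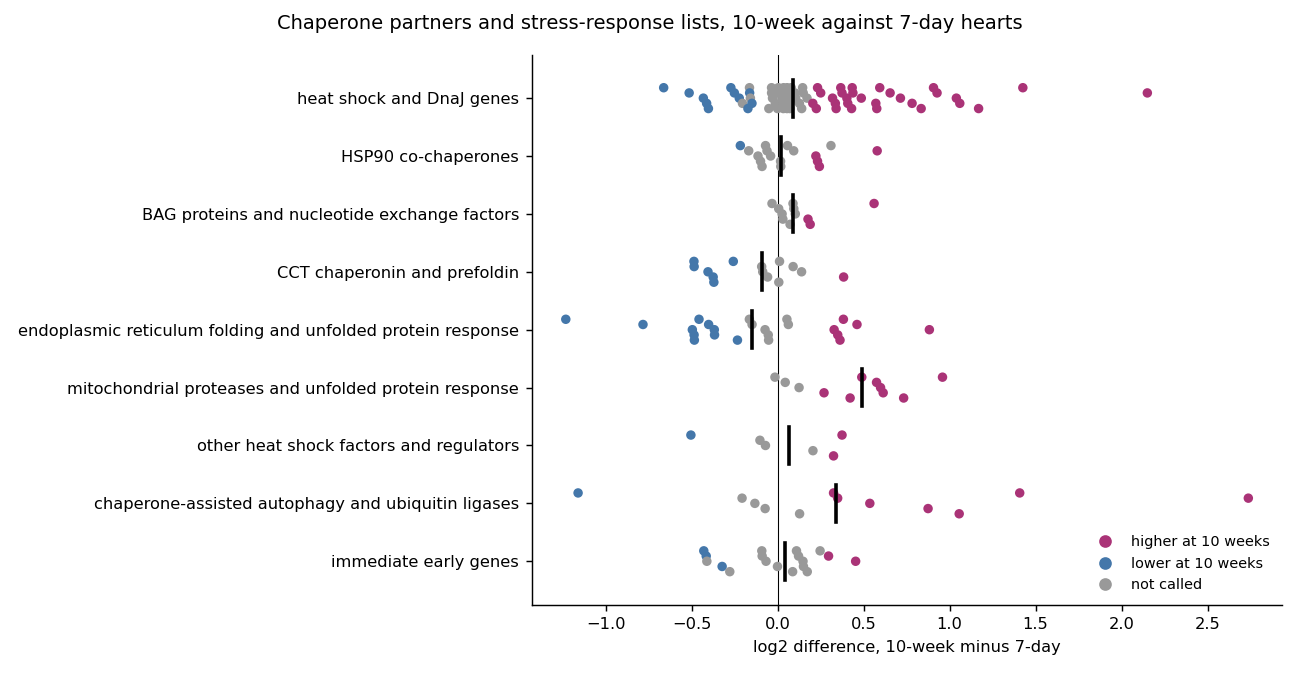
Log2 difference at 10 weeks minus 7 days (horizontal axis) of each gene of the heat shock and DnaJ family and of 8 partner lists, with a vertical bar at each list's median; colours mark genes higher, lower or not called at an adjusted p under 0.05. The mitochondrial protease list has 8 of 11 genes to the right and called, and the CCT list 6 of 14 to the left and called.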

How the data were processed

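Heart RNA was hybridised to 9 Affymetrix Mouse Gene 1.0 ST arrays, 3 per age. The deposited table holds 1 log2 signal for each of 35556 features and array. MAS5 5.0 was used, per the submitters' processing notes; how probes were summarised and arrays normalized is not stated in the labels. Values run from 1.85 to 13.58, above the largest natural log of a 16-bit scanner value (11.09), and array medians lie within 0.0485, so the values were used as deposited. An array has no read depth; the number of arrays limits the precision.

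Of the features, 21789 had 1 platform symbol, 1621 several, and 12146 were not listed; 21698 of the single symbols were matched by Entrez ID and 91 kept the platform's name. The highest-mean probe set of each gene left 19938 genes. limma 3.58.1 in R 4.3.3 fitted 1 mean per age to all 9 arrays (lmFit, eBayes with an intensity trend), with Benjamini-Hochberg adjustment over all genes and calls at an adjusted p under 0.05. The fit was tested on simulated data. Ages came from the sample labels. Per-array values were printed for the 8 largest called rises and falls of each comparison and for a fixed set of members, and up to 4 called genes were named per partner list and comparison. Members and lists were chosen with earlier results of these data known. Promoters and motif counts used Python 3.11.15 and pandas 2.3.3. Alternatives covered scaling, the variance prior, the genes and probe sets fitted, the arrays entered and a replicate block.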

Additional observations from a re-analysis of the deposited data

How the results depend on the processing

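The number of members higher at 7 days than at 24 hours (8) became 5 with each array centred on its median, 1 without 7-day replicates 2 and 3, 4 with every feature of the table fitted (an alternative chosen after seeing the data) and 1 to 9 when 1 array was left out. The number lower (9) became 1 without 7-day replicates 2 and 3 and 5 to 10 with 1 array left out. At 10 weeks against 7 days, the number lower (11) became 7 with median centring, 7 without 7-day replicates 2 and 3 and 7 to 10 with 1 array left out, while the number higher (29) was 26 to 29 with 1 array left out. At 10 weeks against 24 hours, 28 to 31 were higher and 8 to 12 lower with 1 array left out. The causes of these changes were not tested, except that leaving out arrays reduces the samples. Under every alternative, 2 of the 17 calls at 7 days against 24 hours (Hspb8 and Hspa9), 29 of the 40 at 10 weeks against 7 days and 35 of the 42 at 10 weeks against 24 hours were kept, and no called member changed direction. Centring arrays on their medians changed the share of higher calls over all genes to 41.6% at 7 days against 24 hours (52.3% as deposited) and to 61.3% at 10 weeks against 7 days (47.3%). Replicate numbers did not pair the arrays, since same-numbered deviations correlated at -0.17 to 0.13. With the replicate block, 7 members were higher and 8 lower at 7 days against 24 hours, 30 and 10 at 10 weeks against 7 days, and 30 and 10 at 10 weeks against 24 hours. Without 7-day replicates 2 and 3, the lone 7-day array was assumed to vary like the other ages. Dim members have no detection flag, and their differences may be too small.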

Other observations

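Probe sets that carry several symbols were left out of the members and give further values on 5 of them, from a limma fit over every feature. The probe set shared by Hspa1a and Hspa1b, the paired stress-inducible HSP70 genes, read 6.95, 7.08 and 6.87 at 24 hours, 7.08, 7.00 and 7.09 at 7 days and 7.24, 7.17 and 7.28 at 10 weeks. Its 10-week arrays lay above all others, with 0.27 at 10 weeks against 24 hours (adjusted p = 0.0143), and the difference of 0.18 against 7 days was not called (adjusted p = 0.0861). A pair of probe sets shared by Hspa8 and the small nucleolar RNAs Snord14c and Snord14d, which lie in introns of Hspa8, were higher at 10 weeks than at 24 hours by 0.62 (adjusted p = 0.0011) and 0.60 (adjusted p = 0.00149), while the Hspa8 probe set itself was not called. Dnajb6, an aggregation-suppressing J-protein mutated in human muscle disease, read 4.20, 4.44 and 4.11 at 24 hours, 3.96, 4.28 and 3.85 at 7 days and 4.17, 4.14 and 4.15 at 10 weeks on its single-symbol probe set. Dnajb6 was also read by 4 probe sets shared with Gm4247, at 8.92 to 9.62, and none of the 5 was called in any comparison. The single-symbol probe set of Dnajb14, a J-protein of the endoplasmic reticulum membrane, read 6.08 to 6.34 and 2 shared with Pin4 read 8.66 to 9.26, and none of the 3 was called in any comparison. The probe set shared by Dnaja1 and Mir207 read 8.07 to 8.23 and was not called at 10 weeks against 24 hours (0.05, adjusted p = 0.519), as the dimmer single-symbol probe set of Dnaja1 was not.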
